A study of Mus musculus with 24 samples.

Results

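The RNAs described here are the small nucleolar RNAs (snoRNAs) and small nuclear RNAs (snRNAs) of the mouse heart. They were taken as every gene whose only symbol in the array's probe-to-gene table begins with Snora, Snord, Scarna or Rnu followed by a digit. The rule used no measured value, and it found 82 genes, called members below, among 22180 genes with a single symbol. By name, 48 members are box C/D RNAs, 26 are box H/ACA RNAs, 5 are Cajal body RNAs and 3 are spliceosomal RNAs. A further 60 array features carry several symbols of which 1 or more fits the rule, and these were not used.

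Box C/D RNAs are short guides that base-pair with ribosomal RNA and direct the methylation of a ribose, and box H/ACA RNAs direct the change of a uridine to pseudouridine. A few members of each kind, such as the U3 RNA Rnu3a, the U8 RNA Snord118 and the U17 RNAs Snora73a and Snora73b, act in the cutting of the ribosomal RNA precursor. Small Cajal body RNAs guide the same modifications on spliceosomal RNAs. The U5 RNA (Rnu5g) is a part of both spliceosomes, whereas the U11 (Rnu11) and U12 (Rnu12) RNAs belong to the minor spliceosome, which removes a rare class of introns. Most vertebrate snoRNAs are cut out of the introns of a host gene, while U3, U8, U13 and the spliceosomal RNAs are transcribed from promoters of their own.

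The hearts came from male mice with the genotype Clock delta 19/delta 19, aged 8 weeks, and the tissue label is myocardium. The mutation is carried throughout the body and leaves a CLOCK protein without the part encoded by a skipped exon, which activates its targets poorly. The mice were kept in 12 h of light and 12 h of darkness, and 4 hearts, labelled as biological replicates, were taken at each of ZT03, ZT07, ZT11, ZT15, ZT19 and ZT23, where ZT counts the hours from lights on. All groups carry the mutation, and no value below is an effect of genotype, because hearts of wild-type mice were not analysed here. The labels do not say whether the hearts of a group were collected on 1 day or over several.

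The deposited values of each array feature are centred on its own median over the 24 arrays and lie on a log scale that is taken here as log2. A value is therefore a difference of 1 gene from its own median, and the levels of 1 gene and another cannot be compared. If the logarithm were natural, each difference would be 1.44 times larger on the log2 scale. Centring also removes the signal over background, so it cannot be said which members were near the detection limit, and the tissue could not be checked by the levels of its markers. In bulk hearts, fewer cells of a type and less RNA per cell cannot be told apart. Whether a feature detects the mature small RNA, its precursor or an unspliced host transcript is not given in the sources used here.

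All 82 members were matched to RefSeq, where their gene models run from 48 to 248 bases with a median of 85.5. By position 75 members lie within the span of at least 1 other gene, of which 51 different ones code for proteins and 16 are long non-coding RNAs. The strand was not available for this match. The non-coding transcript Snhg12 holds 4 members (Snora16a, Snora44, Snora61 and Snord99) and 2410006H16Rik holds 3 (Snord49a, Snord49b and Snord65). The promoters of these host transcripts are shown because each of these transcripts spans several members, whose time-point means are set side by side further on. Both sequences are from RefSeq on GRCm38.p6, plus strand, 5′ to 3′, with the first 20 transcribed bases in capitals; Snhg12 is at chr4:132308598-132308697 and 2410006H16Rik at chr11:62602797-62602896.
Snhg12: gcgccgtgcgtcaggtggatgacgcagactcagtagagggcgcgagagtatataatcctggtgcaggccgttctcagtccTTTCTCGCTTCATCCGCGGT
2410006H16Rik: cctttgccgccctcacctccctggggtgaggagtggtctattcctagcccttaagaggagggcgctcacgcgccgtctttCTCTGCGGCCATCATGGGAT

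The first question was which members differed among the 6 times of day. Rnu12 and Rnu11, which encode the U12 and U11 RNAs of the minor spliceosome, changed over the day, as did the box C/D RNAs Snord13 and Snord55. All 4 were low in the early and middle light phase. Rnu12, Snord13 and Snord55 had their highest mean at ZT11, near the end of the light phase, and Rnu11 had its highest at ZT23. Against the mean of the 8 hearts at ZT03 and ZT07, the ZT11 mean was higher by 0.92 for Rnu12, 0.89 for Snord13, 0.67 for Rnu11 and 0.65 for Snord55, which on a log2 scale are ratios of 1.89, 1.85, 1.59 and 1.57. The 4 members are 4.88% of the 82, and 1.48% of all genes (329 of 22180) passed the same moderated F test in limma at an adjusted p of 0.05. At an unadjusted p of 0.05, 28 members (34.1%) and 13.4% of all genes passed.

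**Figure D1:**
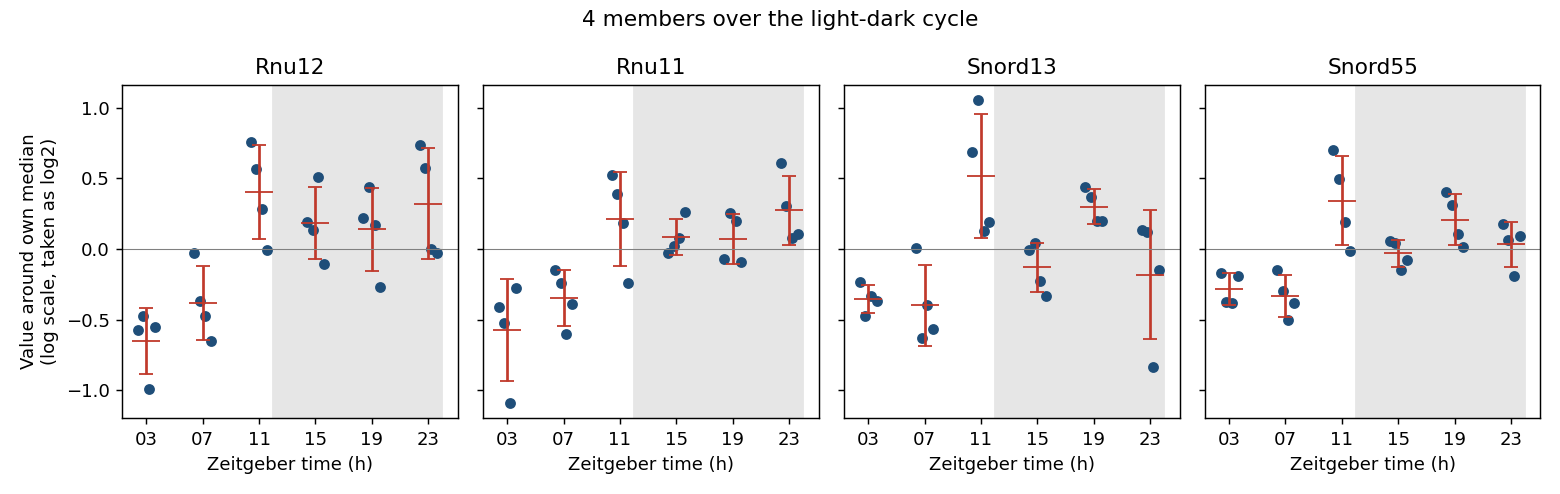
Values of Rnu12, Rnu11, Snord13 and Snord55 in each heart (points) around the gene's own median (y axis, log scale taken as log2), by zeitgeber time in hours (x axis, dark phase shaded), with the mean and SD of 4 hearts in red. The hearts at ZT03 and ZT07 lie low in all 4 panels, with 1 ZT07 heart of Snord13 at 0.0067.

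U12 RNA, encoded by Rnu12, pairs with the branch point of minor introns. Its values were -0.57, -0.48, -0.99 and -0.55 in the hearts of ZT03 and -0.028, -0.37, -0.48 and -0.65 in those of ZT07. At ZT11 they were 0.76, 0.57, 0.28 and -0.0027, and at ZT15 0.19, 0.14, 0.51 and -0.10. At ZT19 they were 0.22, 0.44, 0.17 and -0.26, and at ZT23 0.74, 0.58, 0.0027 and -0.026. All 8 hearts of ZT03 and ZT07 lay below 0, every ZT11 heart lay above all of them, and 10 of the 12 dark-phase hearts did. In order of time the means were -0.65 ± 0.23, -0.38 ± 0.26, 0.40 ± 0.33, 0.18 ± 0.25, 0.14 ± 0.29 and 0.32 ± 0.39 (SD, n = 4 each). The adjusted p of the F test was 0.0231 (limma). It lost the call only when ZT03 replicate 3, its lowest heart, was left out (adjusted p = 0.0672).

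U11 RNA, encoded by Rnu11, recognises the upstream splice site of the same introns. Its values were -0.41, -0.52, -1.09 and -0.27 at ZT03 and -0.14, -0.24, -0.60 and -0.39 at ZT07. At ZT11 they were 0.52, 0.39, 0.18 and -0.24, and at ZT15 -0.025, 0.025, 0.080 and 0.26. At ZT19 they were -0.073, 0.25, 0.20 and -0.089, and at ZT23 0.61, 0.30, 0.079 and 0.11. All 12 dark-phase hearts lay above all 8 hearts of ZT03 and ZT07, while 1 ZT11 heart lay among the low ones. For the orders of dark-phase hearts given for the 4 called members, the share of all genes was not counted. The means ran from -0.57 ± 0.36 at ZT03 and -0.34 ± 0.20 at ZT07 to 0.21 ± 0.34 at ZT11 and 0.28 ± 0.25 at ZT23 (SD, n = 4), with an adjusted p of 0.0318 (limma). The call was kept without 16 of the 24 hearts taken one at a time. It was lost without ZT03 replicates 1, 2 or 3, ZT07 replicates 3 or 4, ZT11 replicates 2 or 3, or ZT23 replicate 2 (highest adjusted p = 0.0687, without ZT03 replicate 2).

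Snord13 encodes the U13 RNA, which guides the acetylation of ribosomal RNA in the small subunit. Its values were -0.23, -0.47, -0.33 and -0.37 at ZT03 and 0.0067, -0.63, -0.40 and -0.57 at ZT07. At ZT11 they were 0.69, 1.05, 0.13 and 0.19, and at ZT15 -0.0067, 0.040, -0.22 and -0.33. At ZT19 they were 0.44, 0.37, 0.20 and 0.20, and at ZT23 0.13, 0.12, -0.84 and -0.15. The ZT11 and ZT19 hearts were all above the 8 hearts of ZT03 and ZT07, whereas the ZT15 hearts overlapped with them and a ZT23 heart was the lowest of all 24. The means were -0.35 ± 0.10, -0.40 ± 0.29, 0.52 ± 0.44, -0.13 ± 0.18, 0.30 ± 0.12 and -0.18 ± 0.46 from ZT03 to ZT23 (SD, n = 4). The adjusted p was 0.0468 (limma). The call was the least stable of the 4: it was kept when ZT07 replicate 1, ZT11 replicates 3 or 4, or ZT23 replicates 1 or 3 was left out and lost when any other single heart was (highest adjusted p = 0.106, without ZT11 replicate 1).

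Snord55 is a box C/D RNA, of the class that guides ribose methylation. Its values were -0.17, -0.38, -0.38 and -0.19 at ZT03 and -0.15, -0.29, -0.50 and -0.38 at ZT07. At ZT11 they were 0.70, 0.49, 0.19 and -0.014, and at ZT15 0.060, 0.041, -0.14 and -0.078. At ZT19 they were 0.40, 0.31, 0.11 and 0.014, and at ZT23 0.18, 0.066, -0.19 and 0.093. Every ZT11 heart and 11 of the 12 dark-phase hearts lay above all 8 hearts of ZT03 and ZT07. The means were -0.28 ± 0.11, -0.33 ± 0.15, 0.34 ± 0.32, -0.030 ± 0.098, 0.21 ± 0.18 and 0.035 ± 0.16 (SD, n = 4), and the adjusted p was 0.0215 (limma). Leaving out ZT03 replicate 3 gave an adjusted p of 0.0531, and the call was kept without any of the other 23 hearts.

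The 4 RNAs also moved together from heart to heart. These pairs were chosen because both genes differed over the day in the same hearts, so the correlations describe them and are no separate support. Over the 24 hearts Rnu12 and Rnu11 had a Pearson r of 0.904 and a Spearman rho of 0.868, and r was 0.868 without the 2 hearts farthest from the median of Rnu12. With each time point's mean removed, r was 0.723. For Snord13 and Snord55 the values were r = 0.877, rho = 0.884 and 0.733 with the time-point means removed. The lowest r of the 6 pairs was 0.555, for Rnu11 with Snord13, where rho was 0.597 (permutation p = 0.00514 for r and 0.00263 for rho, two-sided, 100000 permutations, the same after Benjamini-Hochberg adjustment over 6 pairs). For this pair r was 0.401 with the time-point means removed. The permutations moved hearts across time points, so their p-values include the shared time profile by which the genes were chosen. The other 5 pairs had adjusted permutation p-values of at most 0.000384. Removing the time-point means leaves any difference between replicate numbers in place. At ZT11, in order of replicate number, Rnu12 stood at 0.76, 0.57, 0.28 and -0.0027 and Snord55 at 0.70, 0.49, 0.19 and -0.014. At ZT03 they stood at -0.57, -0.48, -0.99 and -0.55 and at -0.17, -0.38, -0.38 and -0.19, without this order. The part of replicate number in these correlations was not tested.

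The shape of low values at ZT03 and ZT07 and high values at ZT11 was then counted over all members and all genes. It was read from the called members themselves, so Rnu12, Snord13 and Snord55 have it by choice. The shares are descriptions and no separate support. In 6 members (7.32%) every ZT11 heart lay above every heart of ZT03 and ZT07: Rnu12, Snord13, Snord55, Snord104, Snora61 and Snora74a. This held for 0.784% of all genes. The opposite order held for 0 members and for 1.87% of all genes. Among genes that passed the F test, 20 of 22180 (0.0902%) had their highest mean at ZT11 and their lowest at ZT03 or ZT07, and 3 of these 20 were members. The others included Cryab, a small heat shock protein, Lpl, the lipoprotein lipase, and Ckm, the muscle creatine kinase, whose ZT11 means were 0.15, 0.22 and 0.26. They also included Rplp1 and Rpl38, proteins of the large ribosomal subunit, with ZT11 means of 0.14 and 0.55.

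The next 6 members by p did not pass. Snora30, a box H/ACA RNA within Srcap, was highest at ZT03 (0.39 ± 0.20) and ZT19 (0.28 ± 0.25) and lowest at ZT11 (-0.23 ± 0.12; SD, n = 4; adjusted p = 0.0756). Its 4 hearts stood at 0.53, 0.60, 0.23 and 0.21 at ZT03 and at -0.25, -0.060, -0.24 and -0.35 at ZT11. Snord23, within Nop53, had positive means at ZT11, ZT15 and ZT23 (adjusted p = 0.0746). Its host Nop53, a factor of ribosome assembly, had an adjusted p of 0.0786 and its highest mean, 0.22, at ZT11.

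Snord73a and Snord73b lie in the same host, Rps3a1, a gene for a small-subunit ribosomal protein, and differed in shape at ZT11. Snord73a stood at -0.29, -0.12, -0.24 and -0.020 in the 4 ZT11 hearts (adjusted p of the F test 0.0788), and Snord73b at 0.11, 0.75, 0.024 and 0.35 (adjusted p = 0.134). The 4 hearts of one thus lay below 0 and those of the other above it. Snord104, within a gene model named Gm36220, had ZT07 values of 0.0065, -0.29, -0.37 and -0.55 and ZT11 values of 0.16, 0.60, 0.26 and 0.21 (adjusted p = 0.137). Snord19, within the nucleolar GTPase gene Gnl3, was an exception in size: its means spanned 0.14, its 4 ZT15 hearts were at 0.057, 0.15, 0.093 and 0.16, and its adjusted p was 0.105 (limma).

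Early light was compared with early darkness through ZT03 minus ZT15. Rnu12 was lower at ZT03 by 0.83 on the log2 scale (-0.83 ± 0.20, SE, adjusted p = 0.0447, limma). It was the only one of the 82 members to pass (1.22%), against 1.08% of all genes. Without 14 of the 24 hearts, taken one at a time, its adjusted p was above 0.05, up to 0.165 without ZT03 replicate 3. Those 14 are every heart of ZT03 and ZT15, ZT07 replicates 2 and 3, ZT11 replicates 2 and 3, and ZT19 replicates 1 and 3. Rnu11 had a difference of -0.66 ± 0.17 and an adjusted p of 0.0629. With array weights Rnu11, Snord19 and Snord87 passed as well, with quantile normalization Rnu11 did, and with every feature fitted 0 members passed.

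The remaining members mostly lay on the other side. In all, 54 of 82 members (65.9%) had a higher mean at ZT03 than at ZT15, against 46.6% of all genes, and the median difference was 0.075, against -0.0051 over all genes. At an unadjusted p of 0.05, 22 members were higher at ZT03 (26.8%, against 7.96% of all genes) and 5 were lower (6.1%, against 5.05%). Among the members that did not pass, the smallest p-values on the higher side belonged to Snord87 (0.41 ± 0.11, adjusted p = 0.0671), Snord1b (0.58 ± 0.17, adjusted p = 0.0968) and the Cajal body RNA Scarna10 (0.42 ± 0.12, adjusted p = 0.109). The members that lie within a gene had a median difference of 0.11 and the 7 that lie in none had one of -0.11.

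Over the whole light phase against the whole dark phase, 0 members passed (limma), against 0.379% of all genes, and 10 members had an unadjusted p of 0.05 or less (12.2%, against 10.5%). Snord73b had the smallest p, with a light minus dark difference of 0.30 ± 0.071 (SE) and an adjusted p of 0.0731, and each of its 12 light-phase hearts exceeded the dark-phase median. For Rnu11 the difference was -0.38 ± 0.098 (adjusted p = 0.0979) and for Rnu12 it was -0.425 ± 0.11 (adjusted p = 0.114). The median over members was 0.034 and that over all genes was -0.0022, and 50 members (61.0%) were higher in light, against 47.4% of all genes. Of the 10 members with such a p, 6 were higher in light (7.32%, against 6.3% of all genes) and 4 were lower (4.88%, against 4.23%). The count of 0 changed under quantile normalization, where Rnu11 and Snord73b passed, and when ZT11 replicate 1 (Rnu11 and Snord73b) or ZT11 replicate 3 (Snord73b) was left out.

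A cosine of 24 h also called 0 members (limma), against 0.0631% of all genes, and 13 members had an unadjusted p of 0.05 or less (15.9%, against 10.8%). The amplitude, from mean to peak, was 0.40 ± 0.11 for Rnu12 with a fitted peak at ZT16.2 (adjusted p = 0.225) and 0.31 ± 0.090 for Rnu11 with a fitted peak at ZT16.8 (adjusted p = 0.273). For Snord13 it was 0.31 ± 0.11 and for Snord55 0.23 ± 0.070, with fitted peaks at ZT15.0 and ZT16.1. The highest means lay at ZT11 or ZT23 rather than at the fitted peaks. With 1 cycle sampled, such a fit describes the profile and not its repetition.

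**Figure D2:**
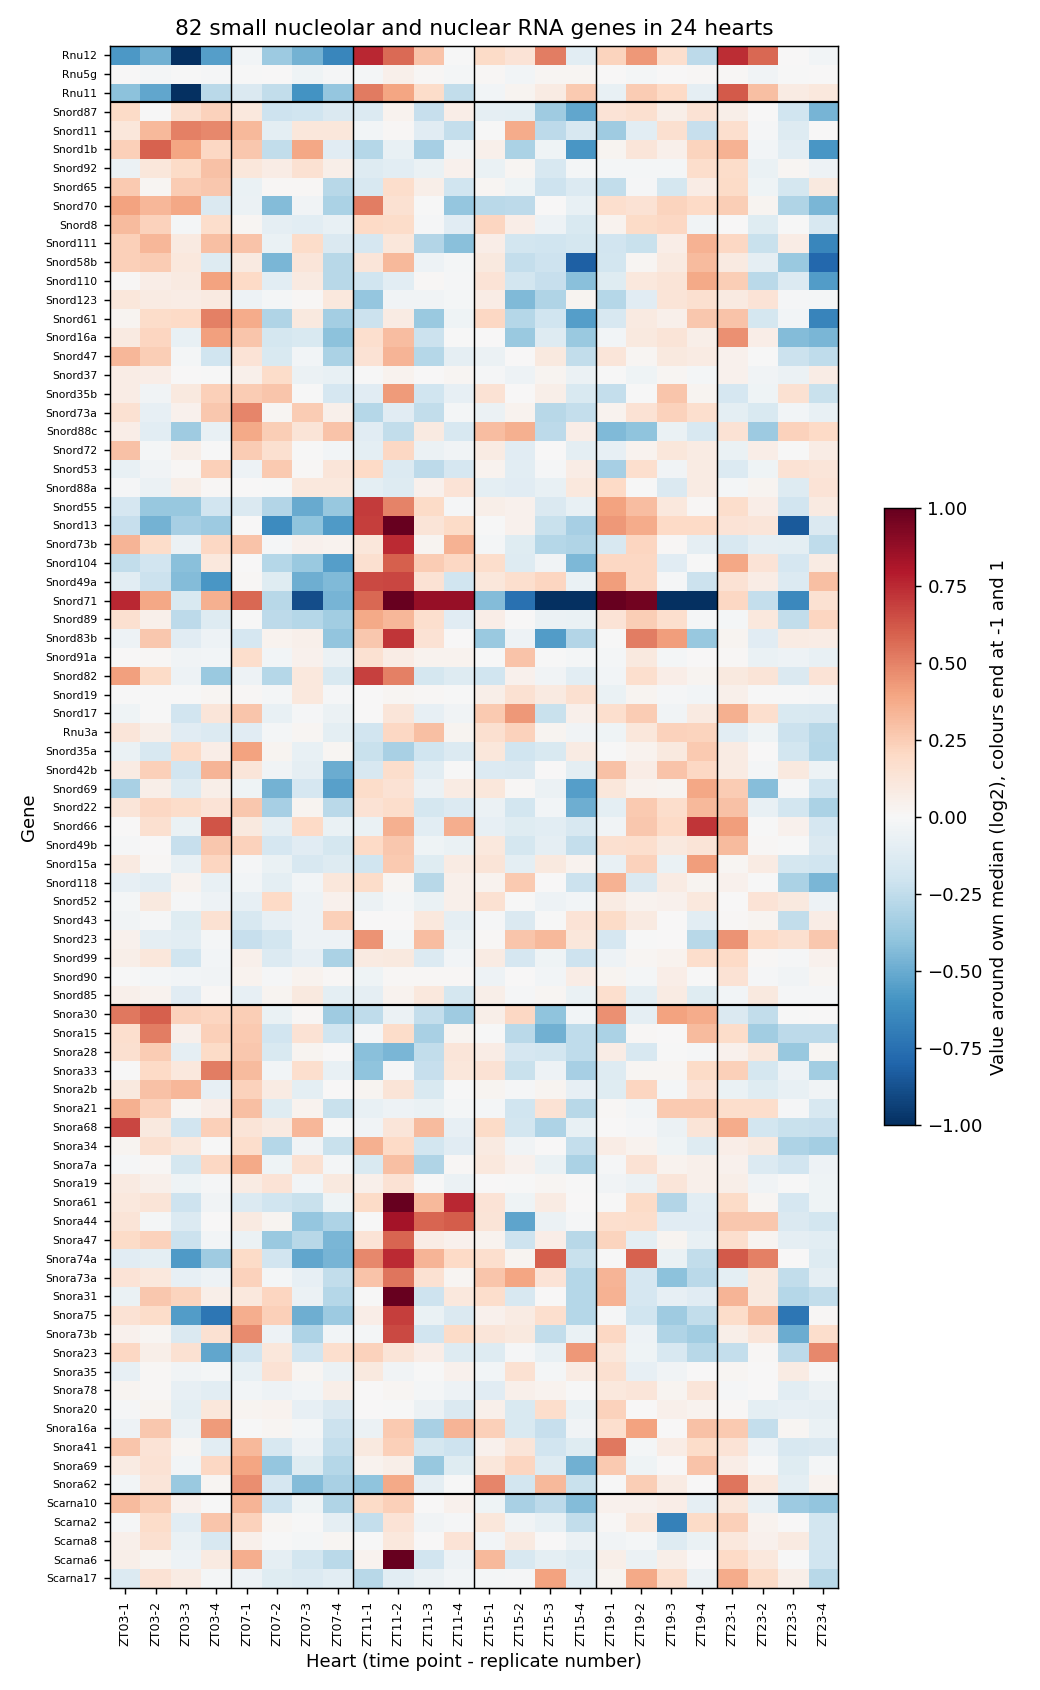
Value of each of the 82 members (rows) in each of the 24 hearts (columns, time point and replicate number) around the gene's own median, on a log scale taken as log2 with colours ending at -1 and 1. Rows are ordered from top to bottom as spliceosomal, box C/D, box H/ACA and Cajal body RNAs, and within each by the time of the highest mean. The column of ZT11 replicate 2 holds the highest value of 20 members, and the row of Snord71 the widest range.

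By class, 2 of the 3 spliceosomal RNAs and 2 of the 48 box C/D RNAs passed the F test, against 1.48% of all genes. Of the 26 box H/ACA RNAs 0 passed, with 6 at an unadjusted p of 0.05 or less (23.1%), and of the 5 Cajal body RNAs 0 passed, with 1 at that p. Among the box C/D RNAs 19 (39.6%) had such a p, against 13.4% of all genes. The classes were not tested against one another. The values of the third spliceosomal member, Rnu5g, hardly varied. They lay between -0.046 and 0.047 over the 24 hearts, and its time-point means between -0.014 and 0.0071. Its SD within time points, 0.0207, exceeded that of only 1.29% of all genes. Because signal over background is unknown, this cannot be read as a contrast with the U11 and U12 RNAs. The highest time-point mean fell at ZT03 in 26 members (31.7%, against 17.3% of all genes), at ZT11 in 22 (26.8%, against 18.5%) and at ZT19 in 17 (20.7%, against 15.9%). It fell at ZT15 in only 4 members (4.88%, against 18.0% of all genes), and the lowest mean fell there in 21 (25.6%, against 15.6%).

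The members varied more between hearts of a time point than most genes. The SD within time points, pooled over the 6 groups, had a median of 0.186 over the members and 0.0869 over all genes. It was above the median of all genes in 73 members and above the 90th percentile of all genes, 0.152, in 59 (72.0%). The median was 0.173 for box C/D, 0.212 for box H/ACA and 0.186 for Cajal body RNAs, and 0.106 over the measured host genes. Across the 82 members the SD had a Pearson r of 0.158 with the length of the gene model, as a description across genes.

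**Figure D3:**
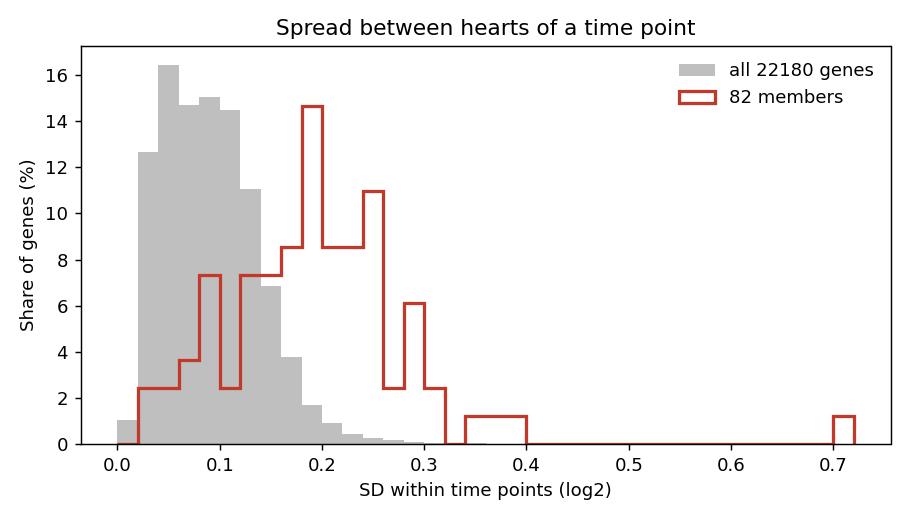
Share of genes (y axis, percent) by SD within time points (x axis, log scale taken as log2), for all 22180 genes (grey) and the 82 members (red line). The median of the members, 0.186, lies above the 90th percentile of all genes, 0.152, and the single member at the far right is Snord71.

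Snord71, a box C/D RNA within Ap1g1, a gene for a subunit of a vesicle coat adaptor, had the highest SD of all 22180 genes, 0.702. Its values were 0.75, 0.38, -0.15 and 0.36 at ZT03 and 0.57, -0.27, -0.89 and -0.47 at ZT07. At ZT11 they were 0.57, 1.52, 0.87 and 0.87, and at ZT15 -0.43, -0.75, -1.16 and -1.40. At ZT19 they were 1.17, 0.96, -1.54 and -1.09, and at ZT23 0.20, -0.24, -0.64 and 0.15. All ZT11 hearts were high and all ZT15 hearts low, while the ZT19 hearts fell at both extremes of the scale. Its ZT03 minus ZT15 difference of 1.27 ± 0.46 (SE) had an adjusted p of 0.207 (limma), and the adjusted p of its F test was 0.221. The ZT11 mean was 0.96 ± 0.40 and the ZT15 mean -0.94 ± 0.43 (SD, n = 4), and this pair was seen after the values were known and was not tested.

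The next highest SDs were those of Snora61 (0.380), Snora75 within the nucleolin gene Ncl (0.370), Scarna6 within Atg16l1 (0.343), Snora31 within Tpt1 (0.316) and Snora74a within Snhg4 (0.314). Rnu12, Snord13 and Snora62 followed with 0.300, 0.300 and 0.296, and Snord61 with 0.283. The calls of Rnu12 and Snord13 were thus made in RNAs of large spread. At the other end stood Rnu5g (0.0207), Snord19 (0.0372), Snord90 (0.0454), Snora78 (0.0534) and Snord37 (0.0607), all below the median of all genes.

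Single hearts stood out in many members at once. The median over the 82 members ran from -0.14 in ZT07 replicate 4 to 0.15 in ZT11 replicate 2, while the median over all genes lay between -0.0061 and 0.0024 in every heart. In ZT11 replicate 2, 22 members (26.8%) were above or below all of the other 23 hearts, as were 7.62% of all genes, and 20 of them were at their highest value. Snora61 stood there at 2.11, the highest value of the deposited table, against 0.19, 0.32 and 0.75 in the other ZT11 hearts. Without this heart Rnu12 and Snord55 passed the F test and Rnu11 and Snord13 did not. ZT23 replicate 4 held the lowest value of 13 members, ZT07 replicate 4 of 11 and ZT15 replicate 4 of 10. In the same order, 17.1%, 14.6% and 13.4% of members lay above or below all other hearts there. For all genes the shares were 12.4%, 6.29% and 8.53%. ZT11 replicate 1 had the largest SD over features, 0.153, and the lowest array weight, 0.542, and 13.4% of members but 16.2% of all genes lay outside the other hearts there.

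**Figure D4:**
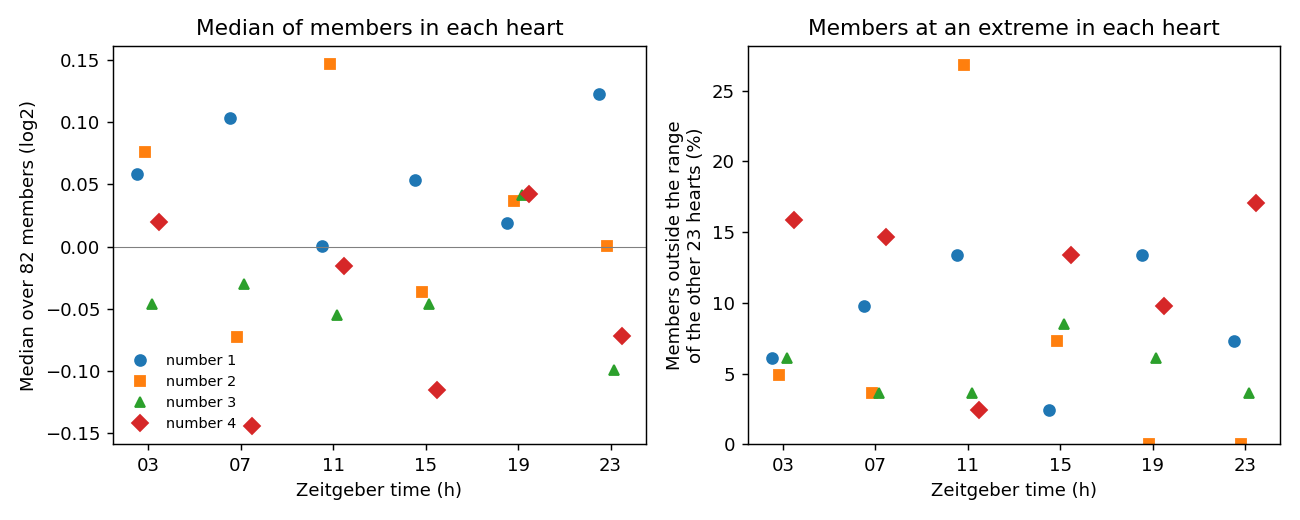
Left, the median over the 82 members in each heart (y axis, log scale taken as log2) by zeitgeber time in hours (x axis), with 1 symbol for each replicate number. Right, the percentage of members in each heart that lie outside the range of the other 23 hearts, which is 26.8% in ZT11 replicate 2 and at most 17.1% in the others.

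The next comparison set the members beside the genes that hold them. Of 67 different hosts 50 were measured, in 64 pairs with 63 members. The F test called 0 of the 50 hosts (limma), against 1.48% of all genes. An unadjusted p of 0.05 or less was found in 12 (24.0%), against 13.4% of all genes. Eif3a, a subunit of a translation initiation factor and the host of Snora19, was the only host to pass any of the 4 tests. Its light minus dark difference was -0.19 ± 0.036 (SE, adjusted p = 0.0195, limma), in a test that 0.379% of all genes passed. The means of Eif3a were -0.062, -0.090 and -0.11 at ZT03, ZT07 and ZT11 and 0.079, 0.066 and 0.16 at ZT15, ZT19 and ZT23. Snora19 is measured by 2 features that hold identical values and count as 1, and its SD within time points was 0.0639.

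Across the 24 hearts the 64 pairs of a member and its host had a median Pearson r of -0.046, from -0.51 (Snord53 with Wdr43) to 0.48 (Snora28 with Eif5). In 31 pairs r was above 0 and in 33 below. Of the 64, 0 passed a permutation test after Benjamini-Hochberg adjustment (smallest adjusted p = 0.379 for Pearson and 0.360 for Spearman, two-sided), and 8 had an unadjusted p of 0.05 or less, 4 in each direction. The 3086 other combinations of these members and hosts had a median r of 0.023. With the mean of each time point removed, the median of the 64 pairs was 0.013.

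**Figure D5:**
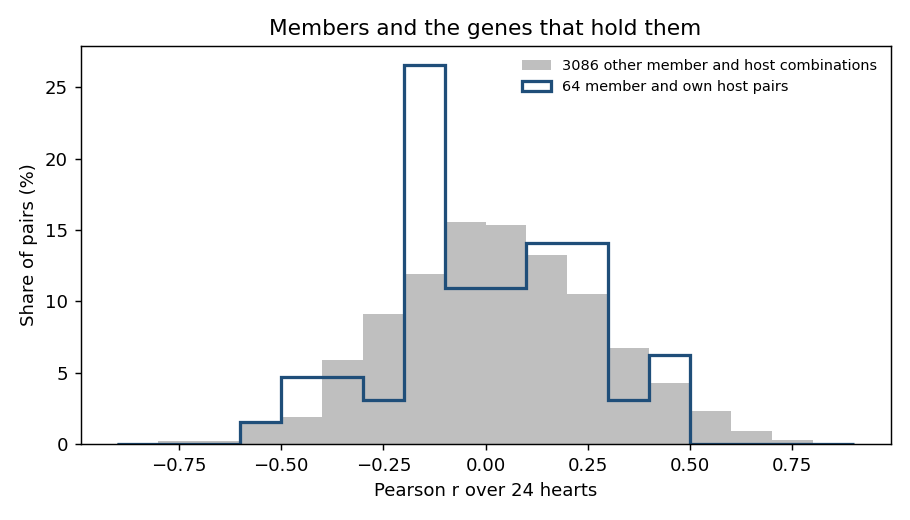
Share of pairs (y axis, percent) by Pearson r over 24 hearts (x axis) for the 64 pairs of a member with its own host (blue line) and the 3086 other combinations of the same members and hosts (grey). The pairs with the own host have a median of -0.046 and the others one of 0.023.

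Members of the same host by position, which include those of the transcripts whose promoters are printed above, gave 18 pairs with a median r of 0.30, from -0.17 to 0.76, and the 3303 other pairs of members a median of 0.17. Within time points the medians were 0.30 and 0.21. The pair of highest r was Snora44 and Snora61, both in Snhg12. Their ZT11 means were 0.50 ± 0.36 and 0.84 ± 0.88 (SD, n = 4), whereas Snora16a and Snord99 of the same transcript had ZT11 means of 0.055 ± 0.31 and 0.0059 ± 0.11. Snhg12 itself had a ZT11 mean of -0.032 and an adjusted p of 0.859 in the F test (limma). Of the RNAs in 2410006H16Rik, Snord49a ran from -0.33 ± 0.21 at ZT03 to 0.32 ± 0.42 at ZT11, Snord65 from 0.20 ± 0.12 to -0.032 ± 0.18, and Snord49b from 0.0073 ± 0.20 to 0.091 ± 0.17. None of these 7 RNAs passed the F test, and the differences between them were not tested.

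The 7 members that lie within no gene span are Rnu11, Rnu12, the U3 RNA Rnu3a, Scarna2, the U8 RNA Snord118, Snord13 and Snord89. Of these 3 passed the F test, against 1 of the 75 members within a gene and 1.48% of all genes. An unadjusted p of 0.05 or less was found in 5 of 7, against 23 of 75 (30.7%) and 13.4% of all genes. The difference between the 7 and the 75 was not tested. Rnu3a was lowest at ZT23 (-0.16 ± 0.10) and highest at ZT19 (0.13 ± 0.13), and Snord118 was also lowest at ZT23 (-0.18 ± 0.24; SD, n = 4). The genes measured next to Rnu12 (Poldip3 and Cyb5r3), Rnu11 (Gmeb1 and Taf12) and Snord13 (Rnf122 and Tti2) had adjusted p-values from 0.275 to 0.937 in the F test (limma).

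Besides Snora19, Snora33 and Scarna17 were each covered by 2 features. The features of Snora33 differed in size, one running from -0.14 to 0.15 over the hearts and the other from -0.68 to 0.88. Those of Scarna17 ran from -0.36 to 0.36 and from -0.24 to 0.49. Neither gene passed a test.

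The proteins and RNAs that make, carry and trim these RNAs were described from 9 lists. The lists were chosen with earlier results of these data known, and 1 of them was added after the values were seen. Of 130 list genes measured, 2 passed the F test (1.54%, against 1.48% of all genes), and 23 (17.7%, against 13.4%) had an unadjusted p of 0.05 or less. Both belong to the list of intron release and trimming (19 measured). Xrn2, a nuclear exonuclease that degrades RNA from the 5′ end, had an adjusted p of 0.0409 and was higher at ZT03 than at ZT15 by 0.40 ± 0.083 (SE, adjusted p = 0.0258). Its means were 0.20, 0.18, -0.067, -0.20, 0.0051 and -0.079 from ZT03 to ZT23. Exosc9, a subunit of the exosome, which trims and degrades RNA from the 3′ end, had an adjusted p of 0.0347 and means of 0.14 at ZT03 and -0.13 at ZT11. Both genes were high at ZT03, where Rnu12, Rnu11, Snord13 and Snord55 were low. Over the 19 genes of this list the ZT03 means ran from -0.18 (Exosc7) to 0.22 (Exosc8), neither of which passed the F test. At ZT19 the mean was 0.068 for Exosc9, and 0.14, 0.073, 0.30 and 0.21 for Rnu12, Rnu11, Snord13 and Snord55. A link of Xrn2 or Exosc9 with these RNAs was not tested.

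In the other lists 0 genes passed the F test (limma). With the number at an unadjusted p of 0.05 or less, these were the core proteins of box C/D particles (1 of 3), the core and assembly proteins of box H/ACA particles (2 of 6), assembly and transport factors (3 of 15), snRNA transcription and 3′ end formation (6 of 22), and the Sm and LSm rings with the SMN complex (3 of 28). The same held for non-coding host transcripts (2 of 21), other structured RNAs (1 of 6) and proteins of the minor spliceosome (0 of 10). The last list was the one added after the values were seen. Among the structured RNAs, Rpph1, the RNA of ribonuclease P, had means of -0.50, -0.27, 0.35, 0.15, -0.042 and 0.23 from ZT03 to ZT23 and an adjusted p of 0.0509. Rn7sk, the RNA that restrains a transcription elongation factor, had means between -0.058 and 0.061 (adjusted p = 0.546).

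Markers of the cell types a heart sample could hold were read in the same fit. In the F test 1 of the 6 genes measured from the skeletal muscle list, Ckm, passed, against 1.48% of all genes. Of the markers of cardiomyocytes (6 measured), fibroblasts (4), endothelium (4), leukocytes (7), brown fat (3) and brain (4), 0 passed. Whether the genes of the skeletal muscle list tell skeletal from heart muscle was not checked. Of the 8 blood markers 1 was measured. For ZT03 minus ZT15, 1 fibroblast and 1 skeletal muscle marker passed, against 1.08% of all genes. The mean of the skeletal muscle list ran from -0.21 to 0.023 in the hearts of ZT03 and from -0.028 to 0.056 in those of ZT11, and that of the fibroblast list from 0.044 to 0.18 and from -0.13 to 0.055. Over the 24 hearts the list means had a Pearson r with the mean of Rnu12, Rnu11, Snord13 and Snord55 of -0.53 for fibroblasts, 0.49 for skeletal muscle, 0.52 for brown fat and 0.64 for brain, given as descriptions. It was 0.39 for the 1 blood marker, 0.26 for endothelium, -0.18 for cardiomyocytes and -0.092 for leukocytes. Ckm, in the skeletal muscle list, was itself among the genes named above that were highest at ZT11, with means of -0.28 at ZT03 and 0.26 at ZT11. The part of the listed cell types in the profiles of the 4 RNAs was not tested.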

How the data were processed

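Total RNA of 24 hearts was labelled with biotin and hybridised to Affymetrix arrays of 1 colour, per the labels' protocols. The deposited table holds 34351 features on a log scale, taken as log2, that the authors had centred per feature. Summarization, normalization, log base and filters are not given in the sources used here, and depth does not apply: 4 arrays per time point limit the precision. Features with 1 symbol (23521) were averaged per gene, with no filter. The members, lists and rules were chosen with earlier results of these data known. In limma 3.58.1 (R 4.3.3), lmFit and eBayes on 22180 genes gave the F test of 6 time-point means, light minus dark, a 24 h cosine and ZT03 minus ZT15, with Benjamini-Hochberg adjustment over all genes at 0.05; code was tested on simulated data. Errors are SE or SD as named.

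Named members are those that passed a test, the 10 smallest F p-values, all Rnu genes, those of several features or a passing host, and the 10 largest and 5 smallest SDs; others were named after their values were seen. Hosts were taken by position without strand, since the gene table has none. Replicate numbers were checked for pairing: deviations of same-numbered hearts correlated from -0.233 to 0.232 over all genes and from -0.458 to 0.565 over the members, not above 0.1 in every pair, so the numbers were not taken to pair hearts.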

Additional observations from a re-analysis of the deposited data

How the results depend on the processing

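Alternatives were quantile normalization, subtraction of array medians, genes of 1 feature, every feature, array weights, a robust variance prior, the replicate block, and each heart left out. Of 12 light minus dark or ZT03 minus ZT15 differences refitted, for 9 members, 0 changed sign. The 34 medians of classes and hearts were recomputed under the first 3 alternatives and stayed within their spread. With the replicate block, the F test called 218 genes and 6 members (with Scarna10 and Snord49a added), light minus dark 1 member (Rnu12) and ZT03 minus ZT15 2 members (Rnu12 and Scarna10). The block lowered the adjusted p of the F test (limma) from 0.0215 to 0.00366 for Snord55 and from 0.0231 to 0.00975 for Rnu12. For Rnu11 it rose from 0.0318 to 0.0381. Quantile normalization gave 144 genes and 2 members (Rnu11 and Snord73b) for light minus dark, 30 genes for the 24 h cosine and 2 members for ZT03 minus ZT15. Fitting every feature gave 3 genes for the cosine and 0 members for ZT03 minus ZT15. Array weights gave 59 genes for the cosine, and 430 genes and 4 members (Rnu11, Rnu12, Snord19 and Snord87) for ZT03 minus ZT15. The cause was not tested.

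With single hearts left out, the F test called 28 to 467 genes and 0 to 6 members: 0 without ZT03 replicate 3, and 2 without ZT03 replicates 1 or 2, ZT07 replicates 3 or 4, ZT11 replicate 2 or ZT23 replicate 2. Light minus dark called 51 to 183 genes and 0 to 2 members, the cosine 3 to 45 genes and 0 members, and ZT03 minus ZT15 25 to 326 genes and 0 to 2 members. Outside the left-out hearts, Rnu12, Rnu11 and Snord55 passed the F test in 6 of 6 alternatives that give their p, and Snord13 in 4 of 6 (adjusted p up to 0.0707). Fitting every feature also called Rnu12, Rnu11 and Snord55 and not Snord13. Signal over background is unknown.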

Other observations

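Members also differed by replicate number, which the labels do not tie to a day or a batch. The median over the 82 members had, over the 6 hearts of a number, a median of 0.056 for number 1 (from 0.00076 to 0.12), 0.018 for number 2 (from -0.073 to 0.15), -0.046 for number 3 (from -0.099 to 0.042) and -0.044 for number 4 (from -0.14 to 0.043). Hearts of number 1 held the highest value of 30 members, those of number 2 of 29, of number 3 of 4 and of number 4 of 19. The lowest values lay in hearts of number 4 for 41 members, of number 3 for 22, of number 1 for 13 and of number 2 for 6. These counts were not made over all genes. Some arrays were extreme over all genes too, with 16.2% of them outside the other hearts in ZT11 replicate 1 and 12.4% in ZT23 replicate 4. Residuals of same-numbered hearts over the members correlated by 0.11, 0.053, 0.16 and 0.11 on average for numbers 1 to 4, with single pairs from -0.46 to 0.57. These are values only, and no test was made on them.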
